A study of Mus musculus with 24 samples.

Results

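Interferon-stimulated genes are the genes that cells switch on when interferons bind their receptors, and 41 of them, given as a list of gene symbols, were followed in the retina of the rd10 mouse. Of the 41, 40 were analysed, among 31346 nuclear genes with counts, and all 40 passed the filter on low counts in each comparison. Mx1 was not analysed here. The list uses no measured value, although it was proposed with earlier results of the data known.

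The data are bulk RNA sequencing of whole retinas from 24 mice, 1 library per mouse, and each library is called a retina here. The study's methods do not state whether a library held 1 or both retinas of a mouse. WT retinas (n = 4) came from C57BL/6J mice on the base diet, with day 29 recorded as their start of cyclic light. The other 20 retinas came from mice with the Rd10 genotype on the C57BL/6J background, which have a missense change in Pde6b, a gene of the phosphodiesterase that rods use to respond to light, in all their cells, and whose rods are lost more slowly in the dark. A dark-reared group (rd10 DR, n = 4) was kept without light on the base diet and taken on day 30 by the labels and day 28 by the study's methods. The rd10 vehicle retinas (n = 8, base diet) and the rd10 TMB retinas (n = 8) were from mice reared in darkness to day 29 and then moved to cyclic light, and were taken on day 36 by the labels and day 37 by the methods, as were the WT retinas. The TMB diet, given from day 28, held tamsulosin, metoprolol and bromocriptine, which block alpha-1 and beta-1 adrenergic receptors and activate dopamine receptors of the D2 type. Each group held as many females as males. Flash electroretinograms were recorded on the day before collection in the mice of the vehicle and TMB groups, but not in those of the WT and rd10 DR groups. By the study's methods, WT and rd10 DR mice were anaesthetised too, for a comparable time and at the same interval from collection. Sample titles of rd10 mice carry the prefixes RD8, RD9 and RD10, and no source used here says what these stand for.

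Type I interferons signal through a receptor with the kinases JAK1 and TYK2, which phosphorylate STAT2 and so lead to a complex with IRF9, ISGF3, that binds the interferon-stimulated response element in promoters, while interferon gamma acts at the gamma-activated sequence. The genes they switch on encode sensors of foreign or misplaced nucleic acids, effectors that block viral RNA or viral entry, and factors that amplify or end the response, and in the nervous system microglia and other glia are known to express them.

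Promoters of the members are shown because the list is defined by a shared response, and the 2 motifs searched are the binding sequences named above. The core of the interferon-stimulated response element was searched as GAAA, any 2 bases and GAAA again (the element core in what follows), and the gamma-activated sequence as TTCNNNGAA, on both strands, in windows of 250 bases before to 50 bases after the start of each gene in RefSeq (build GRCm38.p6). Windows were found for 31 of the 41 members, 6 of them with more than 1 start. The element core stood in the window of 16 of the 31 members (51.6%), compared with 1079 of 27025 genes in all (3.99%). TTCNNNGAA stood in 9 of 31 members (29.0%) and in 2582 of 27025 genes (9.55%). Within the 250 bases before the start these numbers were 12 members against 3.46% of genes, and 7 members against 8.13%. The 6 members with the element core before the start and the smallest adjusted p between rd10 DR and WT retinas are printed, each as the 250 bases before the start, 5′ to 3′ on the strand of the gene, with capitals marking each match on either strand. Ifitm3, which would otherwise be among them, was passed over because its matches lie after the start. Gbp2 lies on the plus strand at chr3:142620413-142620662, Gbp3 on the plus strand at chr3:142559794-142560043, Gbp7 on the plus strand at chr3:142530086-142530335, Oas1a on the minus strand at chr5:120907526-120907775, Rsad2 on the minus strand at chr12:26456453-26456702 and Isg15 on the minus strand at chr4:156200819-156201068.
Gbp2: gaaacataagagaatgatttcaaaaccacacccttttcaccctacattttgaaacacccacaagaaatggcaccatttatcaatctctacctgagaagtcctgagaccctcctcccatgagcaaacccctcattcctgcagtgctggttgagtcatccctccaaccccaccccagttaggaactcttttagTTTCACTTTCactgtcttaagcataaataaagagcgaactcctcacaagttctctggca
Oas1a: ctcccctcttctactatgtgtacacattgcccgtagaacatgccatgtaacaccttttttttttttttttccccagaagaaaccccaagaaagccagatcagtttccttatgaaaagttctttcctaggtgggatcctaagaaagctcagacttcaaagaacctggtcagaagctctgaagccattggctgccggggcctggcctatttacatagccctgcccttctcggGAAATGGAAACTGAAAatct
Gbp3: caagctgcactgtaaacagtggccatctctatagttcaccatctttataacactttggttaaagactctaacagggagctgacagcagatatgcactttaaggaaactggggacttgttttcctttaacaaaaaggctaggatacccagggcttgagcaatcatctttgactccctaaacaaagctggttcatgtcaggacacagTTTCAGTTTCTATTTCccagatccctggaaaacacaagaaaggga
Gbp7: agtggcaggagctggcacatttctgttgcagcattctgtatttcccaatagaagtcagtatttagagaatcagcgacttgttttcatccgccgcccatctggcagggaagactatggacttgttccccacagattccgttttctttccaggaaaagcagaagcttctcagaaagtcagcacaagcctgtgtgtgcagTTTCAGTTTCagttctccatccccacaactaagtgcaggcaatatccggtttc
Rsad2: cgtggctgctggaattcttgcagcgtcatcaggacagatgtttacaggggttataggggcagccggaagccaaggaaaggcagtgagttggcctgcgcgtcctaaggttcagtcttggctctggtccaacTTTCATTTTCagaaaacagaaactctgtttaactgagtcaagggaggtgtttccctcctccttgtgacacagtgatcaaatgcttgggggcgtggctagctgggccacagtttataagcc
Isg15: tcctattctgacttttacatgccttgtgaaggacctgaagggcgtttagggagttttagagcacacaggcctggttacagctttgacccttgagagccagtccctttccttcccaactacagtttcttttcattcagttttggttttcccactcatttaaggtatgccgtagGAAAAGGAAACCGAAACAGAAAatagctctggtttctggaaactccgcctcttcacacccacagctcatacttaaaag

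The match of Gbp2 began 59 bases before the start, that of Gbp7 53 bases and that of Rsad2 120 bases. Oas1a and Gbp3 each held a pair of matches that share bases, beginning 20 and 14 bases before the start in Oas1a and 45 and 39 bases in Gbp3. Isg15 held a run of 3 overlapping matches that began 78, 72 and 66 bases before the start. These matches describe the sequence and say nothing on which factor bound there in these retinas.

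Each library held between 56799680 and 86471014 counts of nuclear genes, and levels are given as CPM, the usual counts per unit of library size after TMM scaling, which corrects for differences in composition between libraries. Rod markers were abundant in all retinas and lower in rd10 (summed level of 6 genes 64141 to 73151 CPM in WT, 38114 to 41441 in rd10 DR, 5098 to 18253 in rd10 vehicle and 13622 to 28869 in rd10 TMB). A pair of retinas stood apart in the interferon-stimulated genes, and results are therefore given with and without them. DR retina 3, a male, held the highest value of its group in 37 of 40 members, and WT retina 3, also a male, in 36 of 40. Of all genes at 1 CPM or more, 19.1% and 26.1% had their highest value in these retinas. The ratio of DR retina 3 to the mean of the other DR retinas had a median of 1.89 over the members and 0.996 over all genes, and that of WT retina 3 a median of 1.99 and 0.974. WT retina 3 also departed across the genome: 6.2% of all genes were more than 1.5-fold above the mean of the other WT retinas there, against 0.373 to 0.866% in each other WT retina, and 38.2% had their lowest value there. In DR retina 3 these shares were 0.687% and 22.5%.

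**Figure D1:**
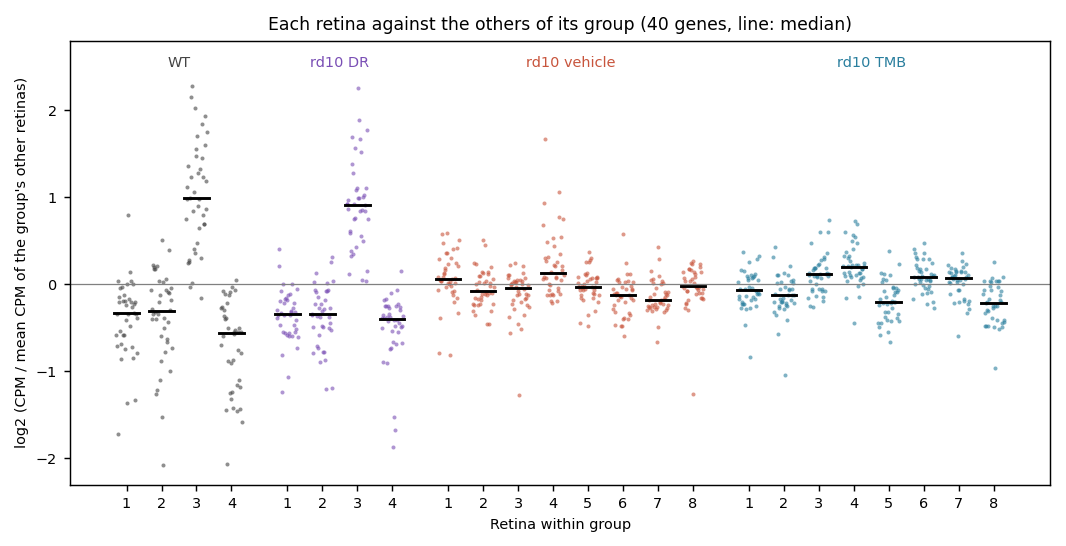
Ratio of each retina to the mean of the other retinas of its group, on a log2 axis, with a point for each of 40 interferon-stimulated genes and a line at their median. WT retina 3 and DR retina 3 lie highest, with 30 of 40 genes more than 1.5-fold above the mean of the others in each.

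In DR retina 3 the dsRNA-binding effector gene Ifit1 stood at 28.7 CPM, against 8.83 to 10.6 CPM in the other DR retinas, and Usp18, the protease that removes ISG15 and restrains the interferon receptor, at 14.98 against 4.36 to 4.88 CPM. Ifi44 stood at 6.20 against 1.48 to 2.01 CPM and Oas3, an oligoadenylate synthetase, at 1.76 against 0.24 to 0.465 CPM. In WT retina 3, Ifit1 was at 8.18 against 1.75 to 2.35 CPM, Usp18 at 6.06 against 1.11 to 1.75 CPM, and Bst2, the tethering factor that holds virus particles on the cell surface, at 12.05 against 2.40 to 3.94 CPM. These are among the largest departures: over the members the ratio to the mean of the other retinas ran from 1.03 (Ifi27) to 4.80 (Oas3) in DR retina 3, and from 0.897 (Samhd1) to 4.86 (Trim30a) in WT retina 3.

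Marker genes of other cells were summed in these retinas for comparison. The 12 microglia genes summed to 330 CPM in DR retina 3, against 244 to 331 CPM in the other DR retinas, so that it lay within their range. In WT retina 3 they summed to 108 CPM, against 73.1 to 98.1 CPM, and 5 genes of infiltrating monocytes and macrophages to 7.85 against 1.54 to 4.54 CPM. Of the latter sum Lyz2 held 7.23 CPM and Ms4a7 0.576 CPM. Ccr2 stood at 0.0165 CPM, Ly6c2 at 0 and Plac8 at 0.0329 CPM, the lowest Plac8 level in WT. In WT retina 3 Müller glia genes summed to 4215 against 3282 to 3763 CPM, and those of the pigment epithelium to 113 against 58.8 to 75.9 CPM. Genes of T and natural killer cells (7 genes) summed to 0.444 to 3.08 CPM over all retinas, and those of B cells (2 genes) to 0.154 to 1.079 CPM. Of plasmacytoid dendritic cell genes, Bst2 is itself a member. The part of these cells in the levels of the 2 retinas was not tested. In bulk tissue, fewer cells of a type and less RNA per cell cannot be told apart.

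The rd10 groups were each compared with WT to describe the difference between the mutant and the normal retina. The interferon-stimulated genes were higher in rd10 retinas of all 3 groups, across sensors, regulators and effectors. In rd10 vehicle retinas 37 of 40 members were higher than in WT and 2 were lower, whereas of all 20763 genes tested 31.6% were higher and 30.2% lower. In rd10 DR retinas 32 of 40 members were higher and 0 lower (14.5% and 10.2% of 20051 genes), and in rd10 TMB retinas 38 were higher and 1 lower (27.2% and 24.9% of 20848 genes). The median log2 fold change of the members was 1.28 in rd10 vehicle, 1.26 in rd10 DR and 1.25 in rd10 TMB retinas, against 0.0149, 0.00372 and 0.0037 over all genes. These comparisons share the 4 WT retinas.

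Calls were made with the quasi-likelihood test of edgeR at an adjusted p under 0.05. In rd10 vehicle retinas 29 members lay above all WT retinas without overlap (22.1% of all genes did), in rd10 DR retinas 25 (15%) and in rd10 TMB retinas 26 (18.1%). Without WT retina 3 the medians rose to 1.599, 1.73 and 1.62, and the members called higher numbered 37, 38 and 37. Of all genes, 32.1%, 18.5% and 28.2% were then called higher. The number of members called in rd10 DR retinas was 23 without DR retina 3, and 22, 24 and 23 without WT retinas 1, 2 and 4. It was 35 without both DR retina 3 and WT retina 3, with a median of 1.30. The share of all genes called higher in rd10 DR moved too, from 14.5% with all retinas to 10.6% without DR retina 3. This share was 10.8% without WT retina 1 or 2 and lower than that without WT retina 4. Without both DR retina 3 and WT retina 3 it lay between 14.5% and 18.5%. The rd10 DR retinas also differed from WT in age and lighting, and these cannot be told apart from the genotype. The same holds for the electroretinogram in rd10 vehicle and rd10 TMB retinas, which was not recorded in WT mice.

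**Figure D2:**
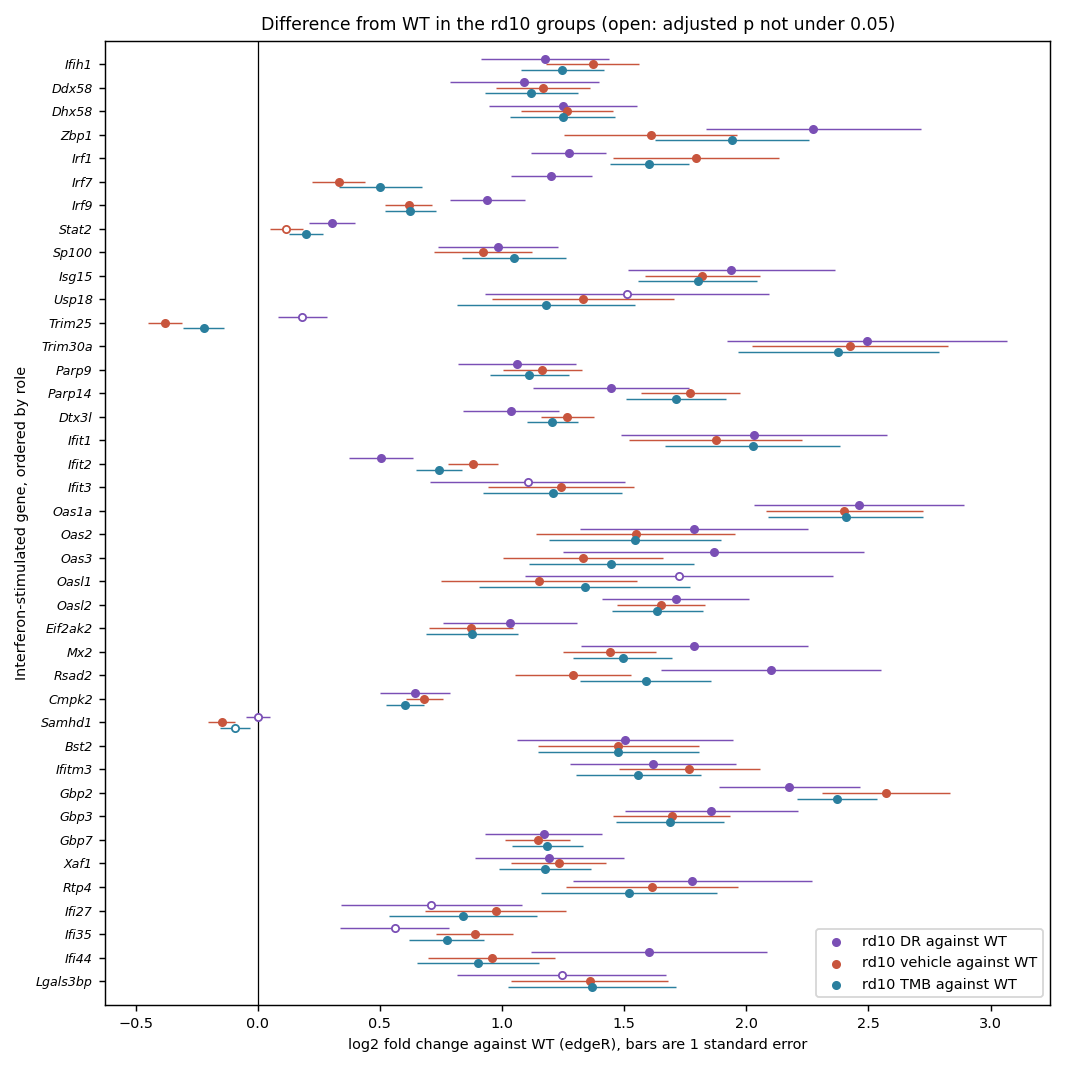
Log2 fold change of each of 40 interferon-stimulated genes against WT, with bars of 1 standard error, for rd10 DR, rd10 vehicle and rd10 TMB retinas, and open points where the adjusted p was not under 0.05. Most genes lie between 0.5 and 2.5 in all 3 groups, with Trim25 and Samhd1 at or below 0 in the rd10 vehicle and rd10 TMB groups and Irf7 farther right in rd10 DR.

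All 4 sensors were higher than WT in each rd10 group. Ifih1 encodes MDA5, a cytosolic sensor of long double-stranded RNA. WT retinas 1 to 4 held 3.90, 5.19, 7.74 and 4.66 CPM of Ifih1 and rd10 DR retinas 1 to 4 9.80, 9.98, 18.7 and 9.80 CPM. Its lowest, median and highest levels were 11.6, 13.7 and 20.9 CPM in rd10 vehicle and 9.81, 12.5 and 15.5 CPM in rd10 TMB retinas. All rd10 retinas thus lay above all WT retinas, with DR retina 3 and vehicle retina 4 far above the rest of their groups. The rise was 2.59-fold (log2 fold change 1.37, SE 0.191, adjusted p = 2.26e-05) in rd10 vehicle, 2.26-fold in rd10 DR (adjusted p = 0.00793) and 2.37-fold in rd10 TMB retinas (adjusted p = 2.75e-05). Zbp1, a sensor of Z-form nucleic acids that can trigger necroptosis, was scarce, with 7 to 38 counts in WT libraries. It stood at 0.1247, 0.282, 0.626 and 0.325 CPM in WT and at 2.03, 1.07, 2.499 and 1.004 CPM in rd10 DR retinas. Across rd10 vehicle retinas it ranged from 0.644 to 1.80 CPM with a median of 0.983, and in rd10 TMB retinas from 0.983 to 1.89 CPM with a median of 1.24. WT retina 3, at the top of its group, remained below all rd10 retinas, and DR retinas 1 and 3 were higher than DR retinas 2 and 4. The rise of Zbp1 was 4.84-fold (log2 fold change 2.28, SE 0.441, adjusted p = 0.00373) in rd10 DR, 3.05-fold in rd10 vehicle (adjusted p = 0.00118) and 3.84-fold in rd10 TMB retinas (adjusted p = 0.000132). Ddx58, the gene of the RNA sensor RIG-I, and Dhx58, which modulates RIG-I and MDA5, were 2.25-fold and 2.40-fold higher in rd10 vehicle than in WT retinas. In rd10 DR retinas the Ddx58 call ended without DR retina 3 (log2 fold change 0.80, adjusted p = 0.0725).

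The transcription factors differed in their course across the groups. Irf1, a factor induced by interferon gamma and by type I interferons, stood at 5.83, 6.38, 6.49 and 4.14 CPM in WT and 15.2, 13.9, 14.5 and 11.1 CPM in rd10 DR retinas. Its lowest, median and highest levels were 14.1, 15.9 and 49.8 CPM in rd10 vehicle and 12.2, 17.8 and 22.5 CPM in rd10 TMB retinas. The 4 DR retinas lay close together and above WT, and DR retina 3 did not stand out, whereas vehicle retina 4 held the highest level by far. Irf1 was 2.42-fold (log2 fold change 1.27, SE 0.155, adjusted p = 0.000234) higher in rd10 DR, 3.47-fold in rd10 vehicle (adjusted p = 0.000358, and 2.73-fold without vehicle retina 4) and 3.04-fold in rd10 TMB retinas (adjusted p = 1.82e-06). Irf9, the DNA-binding subunit of ISGF3, stood at 20.6, 24.6, 25.4 and 18.3 CPM in WT and at 38.3, 37.5, 56.4 and 37.1 CPM in rd10 DR retinas. In rd10 vehicle retinas its lowest, median and highest levels were 29.98, 34.4 and 40.3 CPM, and in rd10 TMB retinas 30.2, 33.9 and 41.7 CPM. No rd10 retina overlapped WT. Its rise was 1.53-fold (log2 fold change 0.62, SE 0.0969, adjusted p = 6.82e-05) in rd10 vehicle, 1.92-fold in rd10 DR (adjusted p = 0.00135) and 1.54-fold in rd10 TMB retinas (adjusted p = 0.000171).

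Irf7, the factor that amplifies the transcription of interferon genes, had its highest group mean in dark-reared retinas. WT retinas held 12.4, 15.01, 15.8 and 11.7 CPM of it and rd10 DR retinas 24.4, 30.3, 42.2 and 28.4 CPM. Its lowest, median and highest levels were 14.3, 17.3 and 20.8 CPM in rd10 vehicle and 14.6, 19.2 and 26.0 CPM in rd10 TMB retinas. All 4 DR retinas lay above all WT and all vehicle retinas, while vehicle retinas overlapped WT. Irf7 was 2.30-fold (log2 fold change 1.20, SE 0.165, adjusted p = 0.000487) higher than WT in rd10 DR retinas, 1.26-fold in rd10 vehicle (adjusted p = 0.0156) and 1.42-fold in rd10 TMB retinas (adjusted p = 0.0215). The calls of rd10 vehicle and rd10 TMB ended without WT retina 1 (adjusted p = 0.0595 and 0.0682) or 4 (0.0656 and 0.0747). Stat2, the partner of IRF9 in ISGF3, had a log2 fold change of 0.12 in rd10 vehicle (adjusted p = 0.146), and was 1.24-fold higher in rd10 DR (adjusted p = 0.0367) and 1.15-fold in rd10 TMB retinas (adjusted p = 0.0273). The rd10 DR call ended without any 1 of DR retinas 1, 2 and 3 or WT retinas 1 and 4 (adjusted p 0.0543 to 0.109), and the rd10 TMB call without WT retina 1, 3 or 4 or TMB retina 7 (adjusted p 0.0528 to 0.0924). Sp100, a nuclear body protein, was 1.98-fold to 2.07-fold higher in rd10 DR and rd10 TMB retinas.

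Of the 7 genes of the ISG15, ubiquitin and ADP-ribose pathway, 6 were higher in both light-exposed groups (rd10 vehicle and rd10 TMB) and 5 in rd10 DR retinas. Dtx3l encodes a ubiquitin ligase that works with the ADP-ribosyltransferase PARP9. It stood at 4.47, 4.26, 5.83 and 4.47 CPM in WT and 8.88, 7.93, 14.02 and 7.94 CPM in rd10 DR retinas. The lowest, median and highest levels of Dtx3l were 10.3, 11.3 and 13.5 CPM in rd10 vehicle and 9.77, 11.2 and 12.5 CPM in rd10 TMB retinas. The retinas of WT, even WT retina 3, remained below all rd10 retinas, and this gene had the smallest adjusted p of the members in rd10 vehicle against WT. The rise was 2.41-fold (log2 fold change 1.27, SE 0.109, adjusted p = 2.56e-07) there, 2.05-fold in rd10 DR (adjusted p = 0.00321) and 2.31-fold in rd10 TMB retinas (adjusted p = 5.25e-07). Parp9 was 2.24-fold and Parp14, another ADP-ribosyltransferase, 3.41-fold higher in rd10 vehicle retinas. Dtx3l and Parp9 share 458 exon bases on opposite strands, and the libraries do not mark the strand. Isg15, the ubiquitin-like modifier itself, rose from 1.14 ± 0.585 CPM in WT (SD, n = 4) to 4.37 ± 2.60 in rd10 DR (n = 4), 4.07 ± 0.618 in rd10 vehicle (n = 8) and 4.03 ± 0.664 in rd10 TMB retinas (n = 8), or 3.84-fold, 3.53-fold and 3.48-fold. Trim30a, a mouse gene of the tripartite-motif family, was 5.38-fold higher in rd10 vehicle, and 10.6-fold without WT retina 3. Usp18 was 2.52-fold higher in rd10 vehicle retinas, and 4.67-fold without WT retina 3. In rd10 DR it was not called with WT retina 3 (log2 fold change 1.51, adjusted p = 0.0826) but was called without it (2.41, adjusted p = 0.000864).

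Trim25, a ubiquitin ligase that acts on RIG-I and can also attach ISG15, was instead lower in rd10 vehicle and rd10 TMB retinas. It stood at 39.1, 44.3, 40.0 and 35.4 CPM in WT and 44.7, 41.5, 53.3 and 39.2 CPM in rd10 DR retinas. In rd10 vehicle retinas its lowest, median and highest levels were 27.6, 31.8 and 33.4 CPM, and in rd10 TMB retinas 29.1, 36.3 and 37.6 CPM. All vehicle retinas lay below all WT and all DR retinas, and TMB retinas overlapped WT but lay below all DR retinas. Trim25 was 1.30-fold (log2 fold change -0.38, SE 0.0695, adjusted p = 0.000271) lower in rd10 vehicle than in WT retinas and 1.17-fold lower in rd10 TMB (adjusted p = 0.0391), with a log2 fold change of 0.18, adjusted p = 0.217 in rd10 DR. The rd10 TMB call was lost without TMM (adjusted p = 0.619), without the filter on low counts (adjusted p = 0.0636), and without WT retina 1, 2 or 3 or TMB retina 1, 2 or 8 (adjusted p 0.0597 to 0.157).

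All 9 RNA-directed effectors were higher in rd10 vehicle and rd10 TMB retinas, and 7 were in rd10 DR retinas. Oasl2, an oligoadenylate synthetase-like protein, stood at 11.9, 14.5, 21.9 and 8.82 CPM in WT and 34.4, 40.1, 74.2 and 37.3 CPM in rd10 DR retinas. Its lowest, median and highest levels were 39.9, 46.2 and 51.3 CPM in rd10 vehicle and 38.3, 47.3 and 49.8 CPM in rd10 TMB retinas. No rd10 retina overlapped WT, and DR retina 3 was above all vehicle and TMB retinas. Oasl2 was 3.14-fold (log2 fold change 1.65, SE 0.180, adjusted p = 2.19e-06) higher in rd10 vehicle, 3.27-fold in rd10 DR (adjusted p = 0.00220) and 3.11-fold in rd10 TMB retinas (adjusted p = 5.2e-06). Oas1a, a synthetase of the 2-5A messenger that activates RNase L, rose from a low level (9 to 33 counts in WT libraries). WT retinas held 0.249, 0.204, 0.543 and 0.133 CPM, and rd10 DR retinas 1.12, 1.31, 2.58 and 1.15 CPM. The lowest, median and highest levels were 1.11, 1.53 and 2.06 CPM in rd10 vehicle and 1.04, 1.51 and 1.91 CPM in rd10 TMB retinas. Every rd10 retina was above every WT retina. Its rise was 5.50-fold (log2 fold change 2.46, SE 0.429, adjusted p = 0.00208) in rd10 DR, 5.28-fold in rd10 vehicle (adjusted p = 1.55e-05) and 5.30-fold in rd10 TMB retinas (adjusted p = 2.05e-05).

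Ifit2, which binds RNA and restrains translation, was the RNA-directed effector with a call between rd10 groups. WT retinas held 11.9, 12.4, 15.9 and 12.6 CPM and rd10 DR retinas 17.2, 16.5, 23.02 and 17.7 CPM of it. The lowest, median and highest levels were 20.9, 23.5 and 30.4 CPM in rd10 vehicle and 19.3, 22.9 and 25.4 CPM in rd10 TMB retinas. All rd10 groups lay above WT, and vehicle retinas lay above 3 of the 4 DR retinas. Ifit2 was 1.42-fold higher than WT in rd10 DR (adjusted p = 0.0168, and 0.0546 without WT retina 1), 1.84-fold (log2 fold change 0.88, SE 0.102, adjusted p = 3.98e-06) in rd10 vehicle and 1.67-fold in rd10 TMB retinas (adjusted p = 1.34e-05). Ifit1 was 3.67-fold higher in rd10 vehicle, or 6.47-fold without WT retina 3, and Ifit3 2.37-fold, or 3.50-fold. Eif2ak2, the gene of the kinase PKR that halts translation, was 1.83-fold higher in rd10 vehicle retinas. Oas2, Oas3 and Oasl1 were 2.92-fold, 2.52-fold and 2.22-fold higher in rd10 vehicle retinas, with Oas3 and Oasl1 below 0.5 CPM in WT. Without WT retina 3 Oas2 was 4.59-fold higher, and Oasl1 had an adjusted p of 0.0689 without WT retina 2 and of 0.0786 without WT retina 4. In rd10 DR retinas Ifit3 (log2 fold change 1.10, adjusted p = 0.0671) and Oasl1 (1.72, adjusted p = 0.0689) were not called, and without WT retina 3 both were. Near-identical relatives in the Oas, Ifit, Gbp and Trim30 families make the counts of these genes uncertain where reads map to more than 1 of them.

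Among other antiviral effectors 8 of 9 were higher than WT in each rd10 group. Gbp2 encodes a guanylate-binding protein that attacks the membranes around pathogens. It stood at 3.65, 2.88, 5.35 and 2.71 CPM in WT and 14.6, 12.5, 26.2 and 12.2 CPM in rd10 DR retinas. The lowest, median and highest levels were 16.5, 19.8 and 40.0 CPM in rd10 vehicle and 16.8, 18.8 and 21.6 CPM in rd10 TMB retinas. No rd10 retina overlapped WT, and DR retina 3 and vehicle retina 4 were the highest of their groups. Gbp2 had the largest fold of the members in rd10 vehicle against WT, 5.95-fold (log2 fold change 2.57, SE 0.261, adjusted p = 1.08e-06), or 5.24-fold without vehicle retina 4. It was 4.52-fold higher in rd10 DR (adjusted p = 0.000399) and 5.17-fold in rd10 TMB retinas (adjusted p = 9.89e-08). Its relatives Gbp3 and Gbp7 were 3.24-fold and 2.21-fold higher in rd10 vehicle retinas. Ifitm3, which blocks the fusion of viruses with endosomes, was 3.40-fold, Bst2 2.78-fold and the dynamin-like GTPase gene Mx2 2.72-fold higher there, and without WT retina 3 Bst2 was 4.57-fold higher.

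Rsad2 encodes viperin, an enzyme that makes a chain-terminating nucleotide, and lies beside Cmpk2, the gene of a mitochondrial nucleotide kinase. Rsad2 stood at 1.25, 1.05, 2.93 and 1.21 CPM in WT and 5.81, 3.48, 13.5 and 4.73 CPM in rd10 DR retinas. The lowest, median and highest levels of Rsad2 were 2.99, 3.93 and 4.61 CPM in rd10 vehicle and 3.78, 4.65 and 7.30 CPM in rd10 TMB retinas. All rd10 retinas lay above WT, if by little in the case of WT retina 3. Rsad2 was 4.29-fold (log2 fold change 2.10, SE 0.452, adjusted p = 0.00678) higher in rd10 DR, 2.45-fold in rd10 vehicle (adjusted p = 0.000268) and 3.01-fold in rd10 TMB retinas (adjusted p = 0.000186). Cmpk2 was 1.56-fold, 1.604-fold and 1.52-fold higher in the same order. Samhd1, which degrades the nucleotides that viruses need to copy DNA, stayed within a narrow range. WT retinas held 49.7, 50.1, 44.8 and 49.8 CPM of it, rd10 DR retinas 48.2, 48.6, 49.5 and 46.5 CPM, and the lowest, median and highest levels were 41, 44.1 and 47.9 CPM in rd10 vehicle and 40.9, 45.3 and 51.6 CPM in rd10 TMB retinas. The groups overlapped. Samhd1 was 1.11-fold (log2 fold change -0.15, SE 0.0536, adjusted p = 0.0263) lower in rd10 vehicle than in WT retinas, a call that ended without the filter on low counts (adjusted p = 0.0522) or WT retina 1, 2 or 4 (0.0673 to 0.0815), and the log2 fold change turned to 0.05, adjusted p = 0.337 without TMM. In rd10 DR and rd10 TMB retinas its log2 fold changes were 0.00, adjusted p = 0.990 and -0.10, adjusted p = 0.210.

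**Figure D3:**
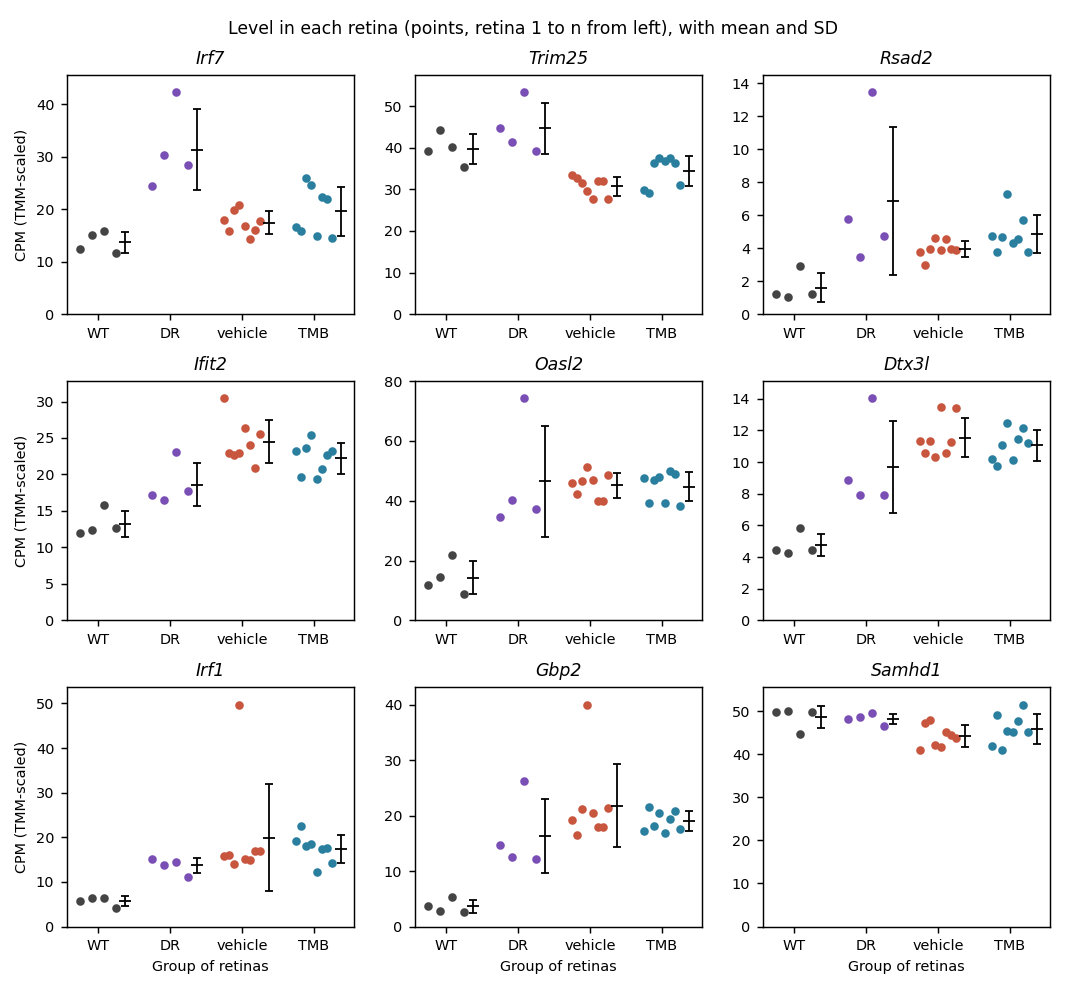
Levels in CPM of 9 interferon-stimulated genes in each retina (points) with the mean and SD of each group. Irf7 lies higher in the 4 DR retinas than in all WT and vehicle retinas, Trim25 is lowest in vehicle retinas and Samhd1 nearly level, and the lone high points are DR retina 3 in Rsad2, Oasl2 and Dtx3l and vehicle retina 4 in Irf1 and Gbp2.

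The 6 remaining members were all higher in rd10 vehicle and rd10 TMB retinas, and 3 of them in rd10 DR retinas. Xaf1, a protein that counters an inhibitor of apoptosis, stood at 3.30, 4.78, 5.50 and 2.12 CPM in WT and 6.61, 7.69, 13.7 and 7.62 CPM in rd10 DR retinas. Its lowest, median and highest levels were 8.45, 9.06 and 10.7 CPM in rd10 vehicle and 8.32, 8.598 and 9.92 CPM in rd10 TMB retinas. WT and rd10 retinas did not overlap. Its rise was 2.35-fold (log2 fold change 1.23, SE 0.196, adjusted p = 7.55e-05) in rd10 vehicle, 2.29-fold in rd10 DR (adjusted p = 0.0162, and 0.0515 without WT retina 1) and 2.26-fold in rd10 TMB retinas (adjusted p = 0.000120). Ifi35 stood at 4.37, 4.77, 7.90 and 3.88 CPM in WT and 7.47, 8.96, 8.28 and 5.93 CPM in rd10 DR retinas, with lowest, median and highest levels of 8.48, 9.57 and 11.1 CPM in rd10 vehicle and 7.96, 9.15 and 9.58 CPM in rd10 TMB retinas. DR retinas overlapped WT through DR retinas 1 and 4 and WT retina 3, while vehicle and TMB retinas lay above WT. It was 1.85-fold (log2 fold change 0.89, SE 0.158, adjusted p = 0.000213) higher in rd10 vehicle and 1.71-fold in rd10 TMB retinas (adjusted p = 0.000698), and its log2 fold change in rd10 DR was 0.56, adjusted p = 0.0906, or 0.82, adjusted p = 0.00107 without WT retina 3. Against WT, in rd10 vehicle retinas, Rtp4 was 3.06-fold, Ifi44 1.94-fold, Ifi27 1.96-fold and Lgals3bp, a secreted galectin-binding glycoprotein, 2.56-fold higher. Without WT retina 3 Rtp4 was 5.17-fold, Ifi27 2.96-fold and Lgals3bp 4.08-fold higher. In rd10 DR retinas Ifi27 (0.71, adjusted p = 0.192, log2) and Lgals3bp (1.24, adjusted p = 0.0566) were not called, and both were without WT retina 3.

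**Figure D4:**
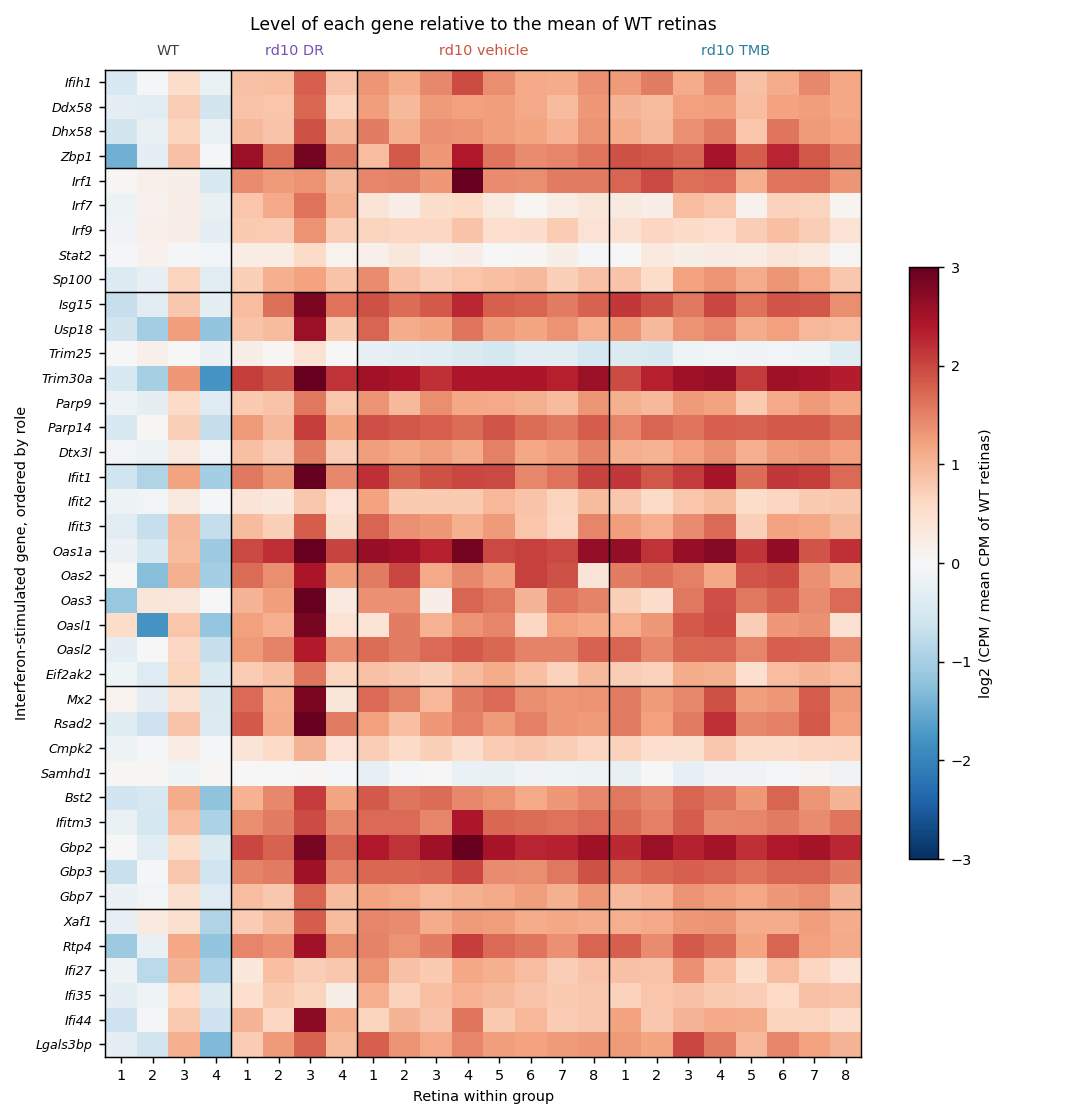
Level of each of 40 interferon-stimulated genes in each of 24 retinas, as the log2 ratio to the mean of the 4 WT retinas, with genes ordered by role and black lines between groups and roles. The colour scale ends at −3 and 3. DR retina 3 and WT retina 3 are the warmest columns of their groups, and Trim25 and Samhd1 stay near or below 0 in vehicle and TMB retinas.

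Members were compared in abundance after division by exon length (CPM per kb of the union of exons in GENCODE M21). In rd10 vehicle retinas the highest means were those of Ifitm3 at 36.1, Lgals3bp at 18.9, Ifit3 at 18.6 and Bst2 at 17.1 CPM per kb. The lowest were Oas3 at 0.0707, Oasl1 at 0.227, Zbp1 at 0.298 and Ifi44 at 0.307 CPM per kb. In WT retinas Ifitm3, at 10.5 CPM per kb, and Stat2, at 9.998, led the list. By this annotation 15 members share exon bases with another gene.

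The rd10 vehicle retinas were compared with rd10 DR retinas to follow the change from the dark-reared stage to the retina after days of cyclic light. Age, light and the electroretinogram before collection differ together here. Most interferon-stimulated genes did not pass the threshold. With all retinas 2 of 40 members were higher in rd10 vehicle (21.9% of 20850 genes) and 5 were lower (20.6%), together 7 of 40 against 42.6% of all genes. The log2 fold change had a median of -0.05 over the members and 0.0168 over all genes. Irf7 and Trim25 fell, Ifit2 and Ifi35 rose, and Irf9, Rsad2 and Samhd1 were lower in calls that ended without DR retina 3.

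Irf7 was 1.81-fold (log2 fold change -0.86, SE 0.122, adjusted p = 5.62e-05) lower and Trim25 1.46-fold (log2 fold change -0.55, SE 0.0771, adjusted p = 5.22e-05) lower in rd10 vehicle than in rd10 DR retinas, in both cases with no overlap between the groups. Both calls remained without DR retina 3 (log2 fold changes -0.68, adjusted p = 0.000200 and -0.45, adjusted p = 0.000243). Ifit2 was 1.31-fold (log2 fold change 0.39, SE 0.103, adjusted p = 0.00664) and Ifi35 1.26-fold (log2 fold change 0.34, SE 0.104, adjusted p = 0.0166) higher. The Ifit2 call remained without DR retina 3 (adjusted p = 0.00107), whereas that of Ifi35 ended without DR retina 4 (0.0721). Rsad2 was 1.74-fold (log2 fold change -0.80, SE 0.254, adjusted p = 0.0187) lower, but without DR retina 3 its log2 fold change was -0.25, adjusted p = 0.226. Irf9 was 1.24-fold (log2 fold change -0.31, SE 0.106, adjusted p = 0.0280) lower, and -0.14, adjusted p = 0.190 without DR retina 3. Samhd1 was 1.10-fold (log2 fold change -0.13, SE 0.0490, adjusted p = 0.0376) lower, with an adjusted p of 0.111 without DR retina 3 and a log2 fold change of -0.03, adjusted p = 0.575 without TMM, and its call also ended without DR retina 1 or 2 or vehicle retina 1, 4, 5 or 8 (adjusted p 0.0522 to 0.0799).

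Leaving out DR retina 3 changed the comparison of the other members. Without it 17 members were higher in rd10 vehicle than in rd10 DR retinas and 2 lower, with a median log2 fold change of 0.30, where 18.6% of all genes were higher and 17.6% lower. The largest of these rises were Gbp2 (1.66-fold, adjusted p = 0.0200) and Parp14 (1.54-fold, adjusted p = 0.000142), followed by Ifit2 (1.42-fold), Ifih1 (1.41-fold) and Dtx3l (1.39-fold). Oasl2 changed sign, from a log2 fold change of -0.05, adjusted p = 0.818 with it to 0.27, adjusted p = 0.0167 without it. With the 4 vehicle retinas of prefix RD10, the prefix that all DR retinas share, and without DR retina 3, 14 members were higher and 2 lower (16.1% and 15.4% of all genes). Without TMM, 4 were higher and 3 lower with all retinas.

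**Figure D5:**
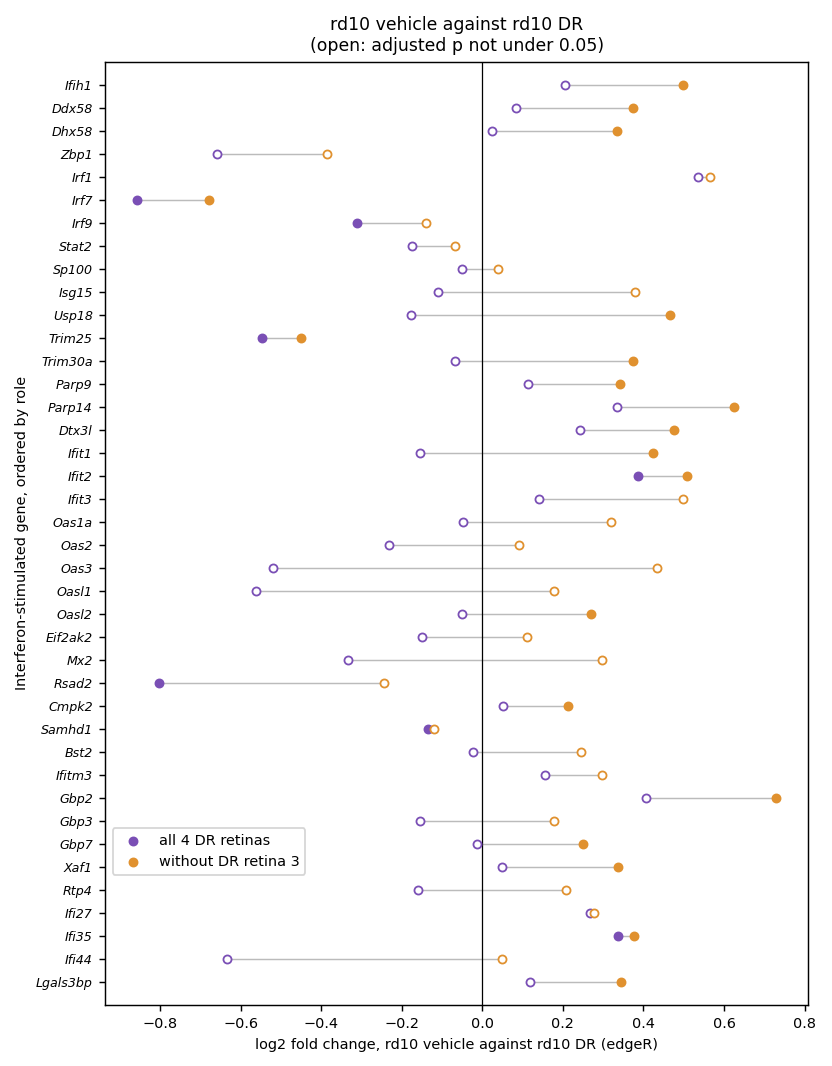
Log2 fold change of each of 40 interferon-stimulated genes in rd10 vehicle against rd10 DR retinas, with all 4 DR retinas and without DR retina 3, joined by a line, and open points where the adjusted p was not under 0.05. Without DR retina 3 most genes move to the right and 17 are called higher, while Irf7 and Trim25 remain called lower.

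Against rd10 DR, rd10 TMB retinas showed 0 members higher (11.6% of 20900 genes) and 2 lower (11.4%), and medians of the log2 fold change were -0.05 over the members and 0.00451 over all genes. At an unadjusted p under 0.05 there were 7 members by edgeR, and DESeq2 called 2 higher and 3 lower. The 2 lower members were again Irf7, 1.62-fold (log2 fold change -0.69, SE 0.168, adjusted p = 0.00761) lower, and Trim25, 1.32-fold (log2 fold change -0.40, SE 0.0889, adjusted p = 0.00481) lower. TMB retinas of Irf7 overlapped DR retinas, while those of Trim25 lay below all of them. Without DR retina 3, 7 members were higher and 2 lower (7.59% and 8.2% of all genes), their median was 0.28, and Xaf1 changed sign, from -0.01, adjusted p = 0.962 to 0.27, adjusted p = 0.0498. The number of higher members was also 2 without TMB retina 5, and 4 members were lower without DR retina 2.

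The comparison of rd10 TMB with rd10 vehicle retinas asks whether the treated retina differs in this response. No member was called in either direction: 0 of 40 were higher and 0 lower, where 3.37% of 20251 genes were higher and 2.32% lower, together 5.69%. By DESeq2 the counts were also 0 and 0, and at an unadjusted p under 0.05 both edgeR and DESeq2 had 2 members. By edgeR these were Trim25, 1.11-fold higher in rd10 TMB (log2 fold change 0.15, 95% interval 0.02 to 0.29, adjusted p = 0.158), and Rsad2, 1.23-fold higher (0.30, 0.04 to 0.56, adjusted p = 0.164). The median log2 fold change was -0.02 over the members and 0.000427 over all genes, and single members ranged from -0.21 to 0.33.

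The intervals limit how large a difference could be. The 95% intervals of all 40 members lay between -0.67 and 0.72 on the log2 scale, and so within 2-fold, with a median width of 0.22 to either side, which is 1.17-fold. Irf7 had a log2 fold change of 0.17 (95% interval -0.09 to 0.42), Oasl2 -0.02 (-0.16 to 0.13), Dtx3l -0.06 (-0.21 to 0.08) and Gbp2 -0.20 (-0.50 to 0.09). In the same retinas all 6 rod markers were higher in rd10 TMB than in rd10 vehicle (median log2 fold change 0.84), and 0 of 12 microglia markers were called by edgeR, with a median of -0.06. The count of members called stayed at 0 in each alternative run. In several of these few genes were called at all, among them the retinas of prefix RD10 alone, with 0.034% of genes higher, and those of prefix RD9 alone, with 0. Single retinas also set the background: 0.00491% of genes were higher and 0.00491% lower without vehicle retina 1, 0.00982% and 0.00491% without vehicle retina 5, 0.305% and 0.28% without TMB retina 5, and 0.668% and 0.413% without TMB retina 4.

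Other genes of the pathway were described from lists that are no part of the 40. Of 12 interferon ligands Ifnk alone was analysed, and it lay between 0 and 0.0253 CPM in all retinas, too low to be tested. The other ligands were not analysed here. Of the receptor chains, Ifnar2 was 1.89-fold and the lambda receptor gene Ifnlr1 4.68-fold higher in rd10 vehicle (7.06-fold without WT retina 3), and the gamma receptor gene Ifngr1 1.27-fold lower. Ifnar1, Jak1 and Jak2 were not called against WT in any group.

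Of 14 upstream sensing genes 10 were higher and 2 lower in rd10 vehicle and in rd10 TMB, and 9 and 1 in rd10 DR retinas, where the shares over all genes were 31.6% and 30.2%, 27.2% and 24.9%, and 14.5% and 10.2%. The endosomal RNA receptor Tlr7 was 7.97-fold, the DNA sensor Ifi204 7.37-fold, the adaptor Tmem173, known as STING, 4.16-fold, Irf5 4.08-fold and Irf8 4.39-fold higher in rd10 vehicle than in WT retinas. Lower were Irf3, the constitutive factor that starts interferon transcription, by 1.59-fold and Mavs, the mitochondrial adaptor of RIG-I and MDA5, by 1.46-fold. Without WT retina 3 Tmem173 was 6.91-fold higher. Mavs was the 1 pathway gene called between rd10 TMB and rd10 vehicle retinas, 1.19-fold higher in rd10 TMB (log2 fold change 0.25, adjusted p = 0.0320), a call that ended without any 1 of TMB retinas 4, 5 and 6 or vehicle retinas 1, 4, 5, 6 and 8 (adjusted p 0.0536 to 0.0692). Of 7 negative regulators 4 were higher and 2 lower in both light-exposed groups, and 2 and 1 in rd10 DR, beside the same shares of all genes. The phosphatase gene Ptpn6 was 3.51-fold higher in rd10 vehicle, and Pias1 and Ptpn2 1.45-fold and 1.26-fold lower. Socs3, which blocks JAK kinases, had lowest, median and highest levels of 12.2, 16.7 and 247 CPM in rd10 vehicle, the last in vehicle retina 4, and was 10.4-fold higher than WT with that retina and 3.65-fold without it.

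A further list of interferon-stimulated genes, not members, was higher in 35 of 39 genes in rd10 vehicle (1 lower), in 28 of 38 in rd10 DR (0 lower) and in 36 of 39 in rd10 TMB retinas (1 lower), with medians of 1.42, 1.41 and 1.37 on the log2 scale. The shares of all genes higher and lower were 31.6% and 30.2%, 14.5% and 10.2%, and 27.2% and 24.9% in the same order. In rd10 DR 17 of 38 were higher without DR retina 3, where 10.6% of all genes were. The smallest adjusted p values in rd10 vehicle were those of Gbp9 (4.12-fold), the immunoproteasome subunit Psmb8 (3.59-fold) and Uba7 (2.65-fold), the enzyme that activates ISG15. In rd10 DR they were Cxcl10, a chemokine (14.3-fold, from 0.104 to 0.196 CPM in WT), Psmb8 (3.25-fold) and Gbp5 (3.45-fold). In rd10 vehicle against rd10 DR retinas 5 of 40 were higher and 2 lower, beside 21.9% and 20.6% of all genes. Without DR retina 3 they numbered 16 and 1, beside 18.6% and 17.6% of all genes. Daxx was 1.35-fold lower with all retinas. Between rd10 TMB and rd10 vehicle retinas 0 of 39 were called by edgeR, beside 5.69% of all genes.

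Microglia markers moved with the members between WT and rd10, but also between rd10 DR and rd10 vehicle retinas. All 12 were higher than WT in each rd10 group, with medians of 2.36 in rd10 vehicle, 1.96 in rd10 DR and 2.25 in rd10 TMB retinas on the log2 scale. Of all genes tested, 31.6% were higher than WT in rd10 vehicle, 14.5% in rd10 DR and 27.2% in rd10 TMB retinas. The shares lower were 30.2%, 10.2% and 24.9%, and these stand beside each count of markers against WT. The summed level of microglia markers was 73.1 to 108 CPM in WT, 244 to 331 in rd10 DR, 366 to 421 in rd10 vehicle and 341 to 462 CPM in rd10 TMB retinas. In rd10 vehicle against rd10 DR 11 of 12 were higher (21.9% of all genes), with a median of 0.48, where the members had -0.05 with and 0.30 without DR retina 3. All 6 Müller glia markers were higher in rd10 vehicle than in WT (median 0.76) and 3 were in rd10 DR (median 0.38). Genes of monocytes and macrophages were higher than WT in 4 of 4 tested in rd10 vehicle (median 2.66), 3 of 3 in rd10 DR (2.28) and 3 of 3 in rd10 TMB retinas (2.77). Ccr2 and Plac8 were scarce, with means of 0.0125 and 0.0601 CPM in WT and 0.305 and 0.240 CPM in rd10 vehicle. Lyz2 and Ms4a7 had means of 3.46 and 0.403 CPM in WT and 24.5 and 2.31 CPM in rd10 vehicle. Endothelial genes were higher in 5 of 6 in rd10 vehicle, 4 of 6 in rd10 DR and 3 of 6 in rd10 TMB retinas. Their medians were 0.60, 0.58 and 0.29. Genes of T and natural killer cells were higher in 2 of 3, 0 of 2 and 2 of 3 in the same order, where the rd10 vehicle median was 1.497 and that of rd10 TMB 1.51. Erythrocyte genes were higher in 5 of 5 in rd10 DR retinas (median 1.62), and 0 of 5 were called in the light-exposed groups. Of 3 plasmacytoid dendritic cell genes, Bst2 among them, 2 were higher and 1 lower in both light-exposed groups. In rd10 DR retinas 2 were higher and 0 lower. Mean levels in WT and rd10 vehicle were 1.40 and 3.70 CPM for Siglech but 7.94 and 2.93 CPM for Ccr9. Of 5 pigment epithelium genes 1 was higher in rd10 vehicle, 4 were in rd10 TMB, and 3 were lower in rd10 DR retinas. In rd10 TMB their summed level was uneven, with 506, 705 and 782 CPM in TMB retinas 2, 3 and 4. It was 135 to 192 CPM in the other TMB retinas and 97.1 to 246 CPM in rd10 vehicle retinas. The part of these cells in the levels of the members was not tested.

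Vehicle retina 4, a female of prefix RD9, held the highest level of its group in 15 of 40 members and in 13.7% of all genes at 1 CPM or more. Irf1, Gbp2, Ifitm3 and Isg15 were among these members. Irf1 stood there at 49.8 CPM against 14.1 to 16.9 CPM in the other vehicle retinas, and Gbp2 at 40.0 against 16.5 to 21.4 CPM. In Dtx3l it held the lowest level of its group, 10.3 CPM, and its ratio to the mean of the other vehicle retinas had a median of 1.09 over the members, against 1.89 in DR retina 3. The same retina held 247 CPM of Socs3, 11.2 CPM of Cxcl10 and 3.66 CPM of Socs1, each the highest of the 24 retinas. Leaving it out changed no count of members called in rd10 vehicle against WT.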

How the data were processed

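Whole retinas were sequenced as unstranded bulk libraries, 1 library per mouse. Per the labels and the study's methods, reads were trimmed with Trimmomatic, aligned with STAR to GRCm38 (mm10) and counted per gene with HTSeq, and the authors deposited raw counts per gene beside log2 fold changes and adjusted p values of their own DESeq2 comparisons, which were not used. The sources differ on whether reads were single or paired. WT columns that recur in the deposited tables were identical, all value columns were matched to a sample, and no libraries were duplicates.

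Nuclear genes (31346) were analysed in R 4.3.3 with edgeR 4.0.16: filterByExpr, TMM scaling, quasi-likelihood fits on the groups compared, and Benjamini-Hochberg adjustment over all genes tested, with a threshold of 0.05. Libraries held 56799680 to 86471014 counts, so that counting error is small for all but the scarcest members. Per-sample values were given for the member with the smallest adjusted p in each role in rd10 vehicle and in rd10 DR against WT, members called between rd10 vehicle and rd10 DR, and members called lower. Alternatives were DESeq2 1.42.0, its size factors, no TMM, no filter, 1 fit over all samples, sex or title prefix as a covariate, single prefixes, TMB retinas 2 to 4 left out, and each retina left out. Leaving out WT retina 3 with DR retina 3, and prefix RD10 without DR retina 3, were chosen after seeing the data. The members and the other gene lists were chosen with earlier results of these data known. The counts over the receptor and kinase list are not reported here. Promoter windows came from RefSeq, exon lengths from GENCODE M21. Tables and figures were made with Python 3.11.15, pandas 2.3.3 and matplotlib 3.10.9.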

Additional observations from a re-analysis of the deposited data

Results flagged for a closer look

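A retina was set apart where its gap to the nearest retina of its group was above the 95% critical value of Dixon's test for the group's range. Chance flags about 1 in 20 groups where values are independent and normally distributed. Here 37 of the 160 groups of values (40 members in 4 groups) met it, or 23.1%. Members vary together over the same retinas, and the share over all genes was not computed. This share therefore cannot show an excess particular to the members.

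DR retina 3 was the highest of its group by this measure in 17 members. Its levels were 18.7 CPM in Ifih1, 28.3 in Ddx58, 7.75 in Dhx58, 56.4 in Irf9, 14.98 in Usp18, 11.6 in Trim30a, 19.6 in Parp9, 14.02 in Dtx3l and 28.7 CPM in Ifit1. They were 2.58 CPM in Oas1a, 1.76 in Oas3, 74.2 in Oasl2, 24.8 in Gbp3, 21.1 in Gbp7, 13.7 in Xaf1, 6.75 in Rtp4 and 6.20 CPM in Ifi44.

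WT retina 3 was the highest of its group in 9 members, with 14.5 CPM in Ddx58, 2.93 in Sp100, 2.01 in Isg15, 6.06 in Usp18, 5.83 in Dtx3l, 8.18 in Ifit1, 27.0 in Ifit3, 2.93 in Rsad2 and 12.05 CPM in Bst2. It was the lowest in Samhd1, at 44.8 CPM.

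Vehicle retina 4 was the highest of 8 in 7 members, with 20.9 CPM in Ifih1, 49.8 in Irf1, 5.45 in Isg15, 38.3 in Ifitm3, 40.0 in Gbp2, 4.99 in Rtp4 and 2.91 CPM in Ifi44. Vehicle retina 1 was the highest in Sp100, at 4.92 CPM, and in Lgals3bp, at 72.6 CPM, and TMB retina 3 in Ifi27, at 27.2 CPM.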

How the results depend on the processing

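With choices of processing or samples changed, 86 counts of members were within 1.5 times their value and 16 were not. These include counts of members with a promoter motif. They also include the runs chosen after seeing the data, which changed more than 1 choice together. Of the values of the named members, 711 kept their side of the threshold, 20 lost the call, 17 gained it and 2 changed sign. A change of sign was counted only where the value was called in either of the runs compared. Values called in neither run could change sign and still count as kept. With 1 retina left out, 15 counts moved further and 129 did not, and 1038 values kept their side, 25 lost the call, 15 gained it and 2 changed sign. Irf1 in rd10 TMB against rd10 vehicle, for example, was never called and ranged from -0.255 to 0.154. Members lower in rd10 vehicle than in WT numbered 1 instead of 2 without TMM, without the filter and with prefix RD10 or RD9 alone, and 1 to 2 with a retina left out. Those lower in rd10 TMB than in WT numbered 0 instead of 1 without TMM, without the filter, with prefix RD10 alone and without TMB retinas 2 to 4, and 0 to 1 with a retina left out. In rd10 vehicle against rd10 DR, 2 higher and 5 lower became 4 and 3 without TMM and 14 and 2 with prefix RD10 and no DR retina 3, and ranged from 1 to 17 and 2 to 7 with a retina left out. In rd10 TMB against rd10 DR, 0 higher became 2 without TMM, with DESeq2 and with prefix RD10, and 1 with sex as a covariate, ranging from 0 to 7 with a retina left out, with 2 to 4 lower. With a retina left out, members higher than WT numbered 35 to 37 in rd10 vehicle, 22 to 38 in rd10 DR and 34 to 38 in rd10 TMB. The share of all genes called higher moved as well, as given above for rd10 DR. Among values called in either of the runs compared, the sign changed for Samhd1 in rd10 vehicle against WT without TMM (log2 fold change 0.055). It changed for Oasl2 in rd10 vehicle against rd10 DR without DR retina 3 (0.27, the range with a retina left out being -0.17 to 0.27) and with prefix RD10 besides (0.28). It also changed for Xaf1 in rd10 TMB against rd10 DR without DR retina 3 (0.27, range -0.13 to 0.27). The causes were not tested. Without TMM, the all-gene median of log2 fold changes moved to 0.218 in rd10 vehicle and 0.17 in rd10 TMB against WT and to 0.117 in rd10 vehicle against rd10 DR. The share of calls that were higher went from 51.1% to 72.3% in rd10 vehicle, 58.8% to 78.9% in rd10 DR and 52.2% to 74.8% in rd10 TMB against WT, from 51.5% to 69.5% and 50.3% to 70.0% in rd10 vehicle and rd10 TMB against rd10 DR, and from 59.3% to 38.7% in rd10 TMB against rd10 vehicle. No paired analysis was possible because the replicate numbers follow the order of the samples and pair no retinas across groups. Depth limits Zbp1, Oas1a, Oas3 and Oasl1, which had 5 to 38 counts in WT libraries.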

Other observations

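The further interferon-stimulated genes showed the same pair of retinas at the top. DR retina 3 held the highest level of its group in 37 of 40 of these genes, with a median ratio of 1.70 to the mean of the other DR retinas, and WT retina 3 in 33 of 40, with a median ratio of 2.07. The upstream sensing genes had median ratios of 1.03 and 1.14 in these retinas.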
